A study of Mus musculus with 2 samples.

Results

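The nuclear genes for the subunits of oxidative phosphorylation were followed through mouse bone marrow progenitors with and without Phf6. Members were taken by symbol: names beginning Ndufa, Ndufb, Ndufc, Ndufs or Ndufv with a digit, the 4 Sdh genes, and names beginning Uqcr, Cox4 to Cox8 or Atp5. This gave 85 of the 32285 genes in the matrices. Complex I had 36 members, complex II 4, complex III 8, complex IV 20 and complex V 17. Ndufa4 and Ndufa4l2 were counted with complex IV, where the Ndufa4 protein is now placed. The rule leaves out Cyc1, Ndufab1 and the subunits encoded in mitochondrial DNA.

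The WT group was 1 library from wild-type cells and the KO group 1 library from Phf6 knockout cells. In both, marrow cells first received a vector with the RUNX1-S291fs mutation and GFP, then were sorted for GFP and transplanted, so the WT cells also carried the RUNX1 mutant. GFP+Lin- cells, which bear the vector and lack markers of mature blood lineages, were collected from the recipients' marrow at week 8. The labels give neither the number of recipients nor the kind of Phf6 allele, and cells that integrated the vector can expand as clones in a recipient. With 1 library a group, no difference has a replicate check and no p-value is given. All intervals below are 95% and cover counting error only.

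The libraries held 131667969 (WT) and 120408100 (KO) unique molecular identifiers (UMIs), and 4478 and 4709 cells were kept, with a median of 24813.5 and 21421 UMIs. Phf6 had 41.8 UMIs per 1000000 (CPM) in WT and 20.6 CPM in KO, a log2 ratio of -1.02. The source of the Phf6 UMIs that remained in KO was not tested. For Runx1 the values were 911 CPM in WT and 1185 CPM in KO, a log2 ratio of 0.38 (0.37 to 0.39). Whether these UMIs came from the vector or from the cells' own gene was not tested. Of the cell barcodes, 10 occurred in both libraries. Haemoglobin genes took 0.149% of WT and 0.0322% of KO UMIs, and the erythroid-like class had 270 WT and 107 KO cells. Although the sort was for cells lacking mature lineage markers, 68 WT and 51 KO cells were B cell-like and 53 WT cells plasma cell-like.

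Oxidative phosphorylation passes electrons from NADH through complex I, or from succinate through complex II, to complex III and then to complex IV, which reduces oxygen. Complexes I, III and IV pump protons, and complex V, the ATP synthase, uses the gradient. Most subunits are nuclear, a small core is encoded in mitochondrial DNA, and several complex IV and V subunits have paralogues used in particular tissues. Blood stem cells are known for low reliance on this pathway, and maturing erythroid cells for high mitochondrial activity while they make haem.

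Nuclear subunit promoters are known for sites of NRF1, ETS factors such as GABPA, YY1 and the ERR receptors. RefSeq promoter windows (GRCm38.p6, from upstream of the annotated start to just past it) were found for 67 of the 85 members, and were searched on both strands for exact letters. A gene with several windows was counted once, as holding a motif if any window did. GCGCATGC (NRF1) was found for 14.9% of members, 6.90% of genes at 10 CPM or more and 3.05% of all genes with a window. CCGGAAG (ETS/GABPA) was found for 25.4%, 23.6% and 9.93%. AAGATGGCG (YY1) was found for 10.4%, 4.33% and 1.64%, and TCAAGGTCA (ERR) for 2.99%, 0.305% and 0.466%. The ERR share rests on 2 members.

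The stretches below show the 100 bases before the start for members described later: 2 with the NRF1 letters, the paralogues Cox6b1 and Cox6b2, and Ndufa4, whose distribution over lineages differed from other members. Capitals mark matched letters, and where the NRF1 letters read on both strands the matches overlap in 1 run. The Atp5k stretch lies at chr5:108434400-108434499 on the minus strand, Ndufa11 at chr17:56717662-56717761 on the plus strand, Cox6b1 at chr7:30626115-30626214, Cox6b2 at chr7:4753095-4753194 and Ndufa4 at chr6:11907451-11907550, these on the minus strand.
Atp5k: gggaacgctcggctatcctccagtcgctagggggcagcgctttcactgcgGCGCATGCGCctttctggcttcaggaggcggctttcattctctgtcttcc
Ndufa11: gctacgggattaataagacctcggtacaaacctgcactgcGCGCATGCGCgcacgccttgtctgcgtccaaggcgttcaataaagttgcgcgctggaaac
Cox6b1: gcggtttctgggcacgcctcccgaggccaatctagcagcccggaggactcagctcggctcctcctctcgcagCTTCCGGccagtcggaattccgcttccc
Cox6b2: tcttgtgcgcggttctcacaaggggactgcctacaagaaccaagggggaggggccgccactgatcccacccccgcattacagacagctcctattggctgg
Ndufa4: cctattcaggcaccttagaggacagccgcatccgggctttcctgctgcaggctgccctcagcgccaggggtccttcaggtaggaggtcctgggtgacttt
The Cox6b1 stretch holds the ETS/GABPA letters read on the other strand, while the Cox6b2 and Ndufa4 stretches hold none of the 4 motifs. A match is a description of these letters and no evidence of binding.

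Over all kept cells the members together were slightly lower in KO. They took 2.58% of UMIs in WT and 2.44% in KO, or 25775 and 24447 summed CPM, a log2 ratio of -0.08 (-0.08 to -0.07). Of the 85, 78 had at least 10 CPM averaged over the libraries. Their median log2 ratio was -0.07, beside 0.06 over the 8584 genes at that level. Single members lay between -0.24 and 0.06, and 69 of 78 were below 0 and 76 of 78 below the median of all genes, where 50% of genes lie. None of the 78 was 1.2-fold lower, against 5.74% of all genes, and none was 1.2-fold higher, against 15%. None passed 1.5-fold in either direction, against 3.29%. With TMM factors, which moved the median of all genes to -0.01, 3 members were 1.2-fold lower, and with a median of ratios 5 were. The libraries also differed in their mix of cells: cluster 0, led by Tox and Dntt and low in member level, held 256 WT and 727 KO cells. With clusters weighted alike, the members' median relative to all genes was -0.0745 in place of -0.13.

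**Figure D1:**
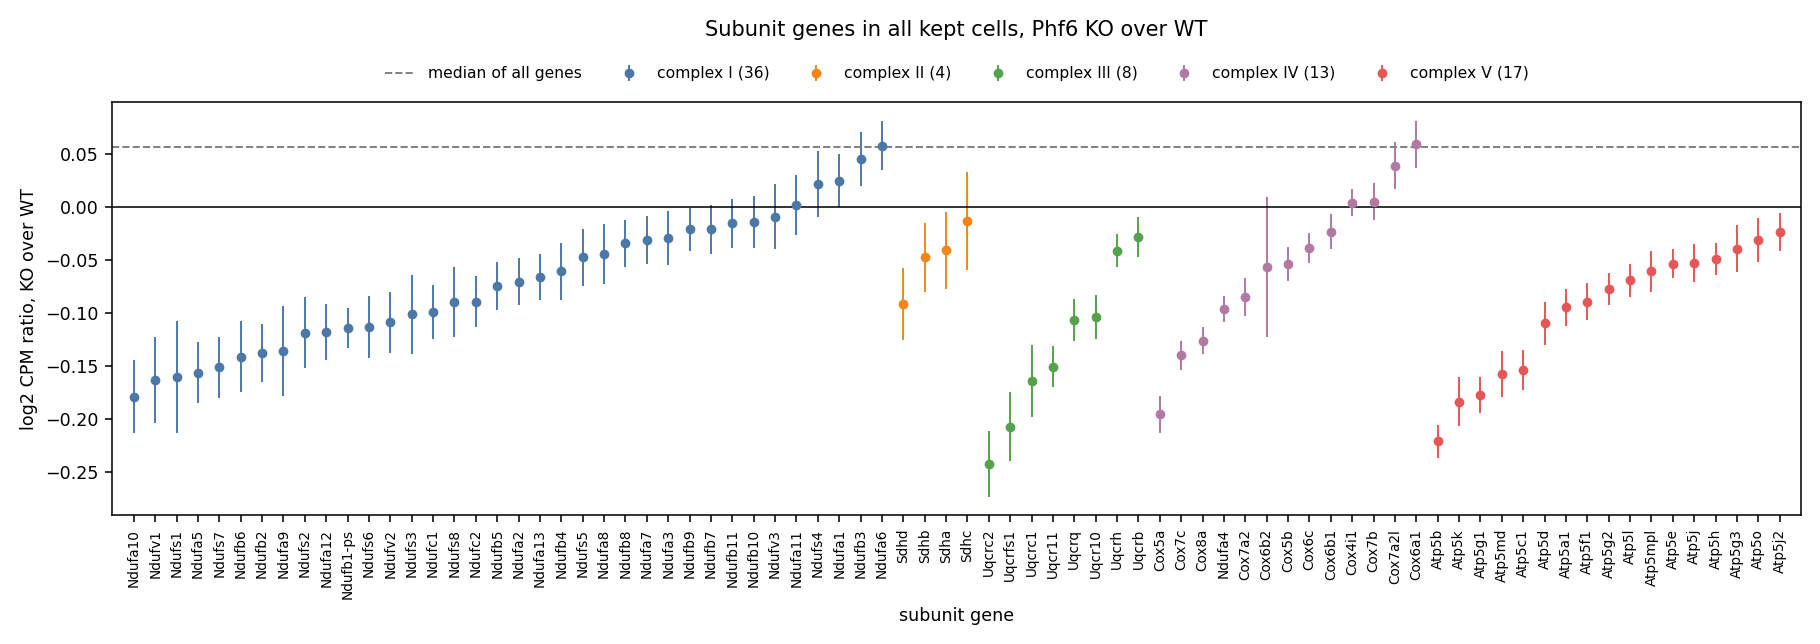
Log2 ratio of CPM, KO over WT, over all kept cells for each of the 78 subunit genes at 10 CPM or more (x axis), coloured by complex and ordered within it. Bars are 95% counting intervals and the dashed line is the median of all genes, 0.06; 76 of the 78 points lie below it, from -0.24 for Uqcrc2 to 0.06 for Cox6a1.

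Complex III had a median of -0.13 over 8 members, the lowest of the complexes in the sum over all cells. Relative to all genes it was -0.19, against -0.13 for complex V. With clusters weighted alike complex III was at -0.0867 and complex V lower, at -0.0984, and with classes weighted alike they were at -0.0902 and -0.0912. Its core protein Uqcrc2 had 164 CPM in WT and 138 CPM in KO, a log2 ratio of -0.24 (-0.27 to -0.21). The Rieske iron-sulphur protein Uqcrfs1, which hands electrons on within the complex, had 143 and 124 CPM, a ratio of -0.21. The core protein Uqcrc1 had 133 and 119 CPM, a ratio of -0.16. The small subunits Uqcrh and Uqcrb were nearest to equal, at -0.04 and -0.03, and were also the most abundant of the complex, with 566 and 404 CPM in WT.

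The ATP synthase had a median of -0.08 over 17 members, all below 0. Atp5b, the catalytic beta subunit, had 638 CPM in WT and 547 CPM in KO, a log2 ratio of -0.22 (-0.24 to -0.21). Atp5k, a small membrane subunit, had 286 and 252 CPM, a ratio of -0.18. Atp5g1, 1 of 3 genes for the same mature rotor c subunit, had 537 and 475 CPM, a ratio of -0.18. The other c subunit genes were nearer to 0, at -0.08 for Atp5g2 and -0.04 for Atp5g3. Atp5j2 was the nearest, at -0.02, and Atp5e was the most abundant, with 782 and 753 CPM.

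Complex I had a median of -0.07 over its 36 members, of which 31 were below 0. The lowest were the accessory subunit Ndufa10 at -0.18 (128 CPM in WT and 113 CPM in KO), the flavoprotein Ndufv1 at -0.16 and the iron-sulphur subunit Ndufs1 at -0.16, both in the arm that oxidises NADH. The highest were the accessory subunits Ndufa6 at 0.06 (257 and 267 CPM), Ndufb3 at 0.05 and Ndufa1 at 0.03. The most abundant were Ndufb1-ps, with 411 and 379 CPM, and Ndufb9, with 337 and 333 CPM. Complex II, which is also the succinate dehydrogenase of the tricarboxylic acid cycle, had a median of -0.04, from -0.09 for the anchor Sdhd to -0.01 for the anchor Sdhc.

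Complex IV had a median of -0.05 over 13 members at 10 CPM or more. Relative to all genes it was -0.11, and -0.0442 with clusters or -0.028 with classes weighted alike. Cox5a, a nuclear subunit, had 500 CPM in WT and 437 CPM in KO, a log2 ratio of -0.20 (-0.21 to -0.18). Cox7c followed at -0.14 and Cox8a at -0.13. Cox6a1 was the highest, with 272 and 283 CPM, a ratio of 0.06, then Cox7a2l, a factor for joining complexes III and IV, at 0.04 and Cox7b at 0.01. Ndufa4 had 999 and 935 CPM and Cox8a 951 and 872 CPM, the highest of all members in WT. Because 1 transcript gives 1 tag at its 3′ end, these CPM are not divided by gene length.

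Below 10 CPM were 7 members, all of complex IV and all tissue-restricted paralogues or Ndufa4l2. Cox8b and Cox8c had no UMI in either library, so shares of up to 0.067% of WT and 0.0637% of KO cells with a UMI are allowed. Cox7b2 had 0 and 1 UMIs and Ndufa4l2, a hypoxia-induced relative of Ndufa4, 8 and 0. Cox7a1 had 126 and 149 UMIs, Cox4i2 146 and 208, and Cox6a2 222 and 312.

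The level of the whole set covered a wider range between lineages than between the libraries. Cells were clustered and named from marker genes, and a name ends in "like" because it rests on RNA alone. These levels are a description, since the clusters were made from the same cells. The erythroid-like class had the highest summed level, with 33886 CPM in WT and 30934 CPM in KO. Next came the neutrophil progenitor-like class, with 28527 and 29837 CPM, and the monocyte-like class, with 26613 and 26863 CPM. The megakaryocyte-like class had 24549 and 24041 CPM and the HSC/MPP-like class, with markers of stem and multipotent progenitor cells, 21972 and 19781 CPM. The basophil or mast cell-like class had 16993 and 17433 CPM. The order of these last 3 classes turned with the processing. The megakaryocyte-like level over the HSC/MPP-like level, 0.22 in log2, was -0.001 without mitochondrial, ribosomal protein and haemoglobin UMIs in the total and -0.0843 as a mean per cell. The basophil or mast cell-like level over the HSC/MPP-like level, -0.28, was 0.02 with a stricter cell filter. The HSC/MPP-like level over all cells, -0.27, was -0.56 when cells were clustered again without members among the variable genes. Only 1 member, Cox6a2, had been among them. The lowest with at least 50 cells in each library was unnamed cluster 17, led by the macrophage genes C1qb and Adgre4, with 12503 and 13530 CPM and a median depth of only 6727 UMIs a cell. Within the megakaryocyte-like class, cluster 11, with a median of 3328 UMIs, had 10908 CPM in WT, while cluster 7 had 24968 CPM, so the class holds unlike cells.

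**Figure D2:**
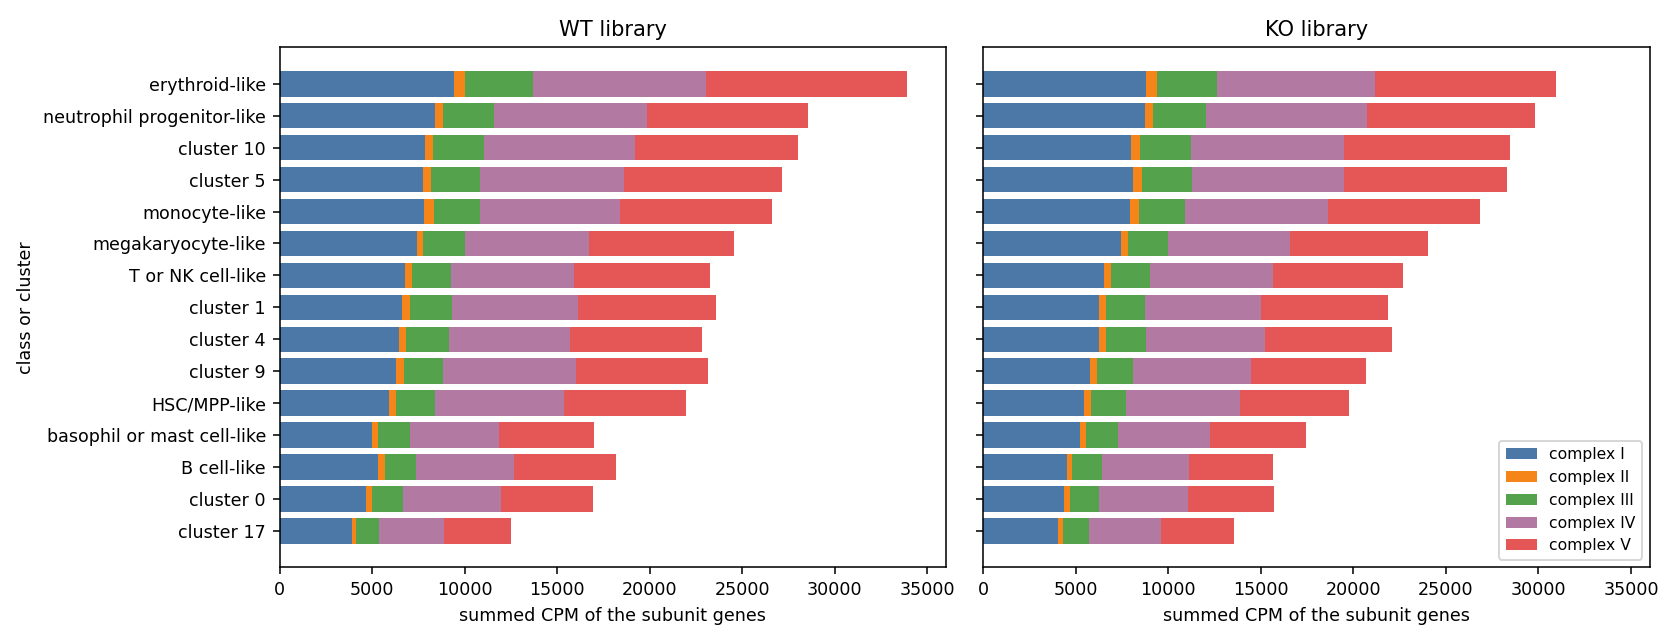
Summed CPM of the 85 subunit genes (x axis) in each class or unnamed cluster with at least 50 cells in each library (y axis), in the WT library (left) and the KO library (right), with bar segments for the complexes. The erythroid-like bar is the longest in both libraries, at 33886 and 30934 CPM, and that of cluster 17 the shortest, at 12503 and 13530 CPM.

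Of the 78 members, 49 had their highest level in the erythroid-like class and 17 in the neutrophil progenitor-like class, and 55 had their lowest in cluster 17. The complexes had similar shares of the whole in the HSC/MPP-, megakaryocyte-, monocyte-, neutrophil progenitor- and erythroid-like classes. In WT, complex I made up 26.9% of member UMIs in the HSC/MPP-like class and 30.1% in the megakaryocyte-like class, and complex V 30.2% in the HSC/MPP-like class and 32.1% in the erythroid-like class. Complex IV ranged from 27.5% in the megakaryocyte-like class to 31.7% in the HSC/MPP-like class. This includes Ndufa4, counted here with complex IV. Averaged over the libraries, Ndufa4 alone made up 8.26% of the 78 members' level in the HSC/MPP-like class, its highest share. The shares of the complexes in that class therefore depend on where this 1 gene is placed. Ndufa6 had the smallest range of level over the lineages, from 216 to 336 CPM averaged over the libraries.

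A few members had their own distribution. Ndufa4 was highest in the HSC/MPP-like class, where most members were low: 1906 CPM in WT and 1544 CPM in KO, against 890 and 813 CPM in the erythroid-like class and 644 and 668 CPM in the monocyte-like class. It was the only 1 of the 78 to peak in that class. Ndufa4 was also high in cluster 9, led by the mitotic genes Pimreg and Aspm, with 1533 and 1313 CPM, and in cluster 0, led by Tox and Dntt, with 1249 and 1039 CPM. In these 3 groups it was lower in KO, with log2 ratios of -0.30 (-0.34 to -0.27), -0.22 and -0.27.

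Atp5g1 was highest in the erythroid-like class, with 1017 CPM in WT and 933 CPM in KO, against 388 and 334 CPM in the HSC/MPP-like class. It gave 47.9% and 46.6% of the UMIs of the 3 rotor c subunit genes in erythroid-like cells, and 31.9% and 30.1% in HSC/MPP-like cells, where Atp5g2 gave 49.3% and 51.1%. Cox7a2l gave 54.3% and 56.2% of the UMIs of the Cox7a genes in HSC/MPP-like cells, and 24.4% and 30% in erythroid-like cells, where Cox7a2 took most of the rest. The make-up of the c subunit and Cox7a genes thus differed between these 2 classes.

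Cox6b2, a paralogue of Cox6b1 best known from testis, had the widest range of any member at 10 CPM or more. It had 135 CPM in WT and 214 CPM in KO in the erythroid-like class, and at most 24.5 CPM in WT in any other class or cluster with at least 50 cells in each library. Over all cells Cox6b2 was at 33.3 and 32.0 CPM, a log2 ratio of -0.06 (-0.12 to 0.01). Within lineages it was higher in KO in 13 of 15 classes or clusters, with an interval above 0 in 9. The ratio was 0.66 (0.55 to 0.77) in the erythroid-like class, 0.89 (0.57 to 1.22) in the HSC/MPP-like class, from 130 and 200 UMIs, and 0.95 (0.35 to 1.57) in the basophil or mast cell-like class, from 41 and 57 UMIs. In the neutrophil progenitor-like class it was -0.25 (-0.50 to -0.01). The erythroid-like ratio pools clusters 15 and 18, whose mix differed between the libraries. With the erythroid-like cells left out, the ratio over all other cells was 0.38 (0.29 to 0.47), so the ratio over all cells depended on the 270 WT and 107 KO erythroid-like cells.

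**Figure D3:**
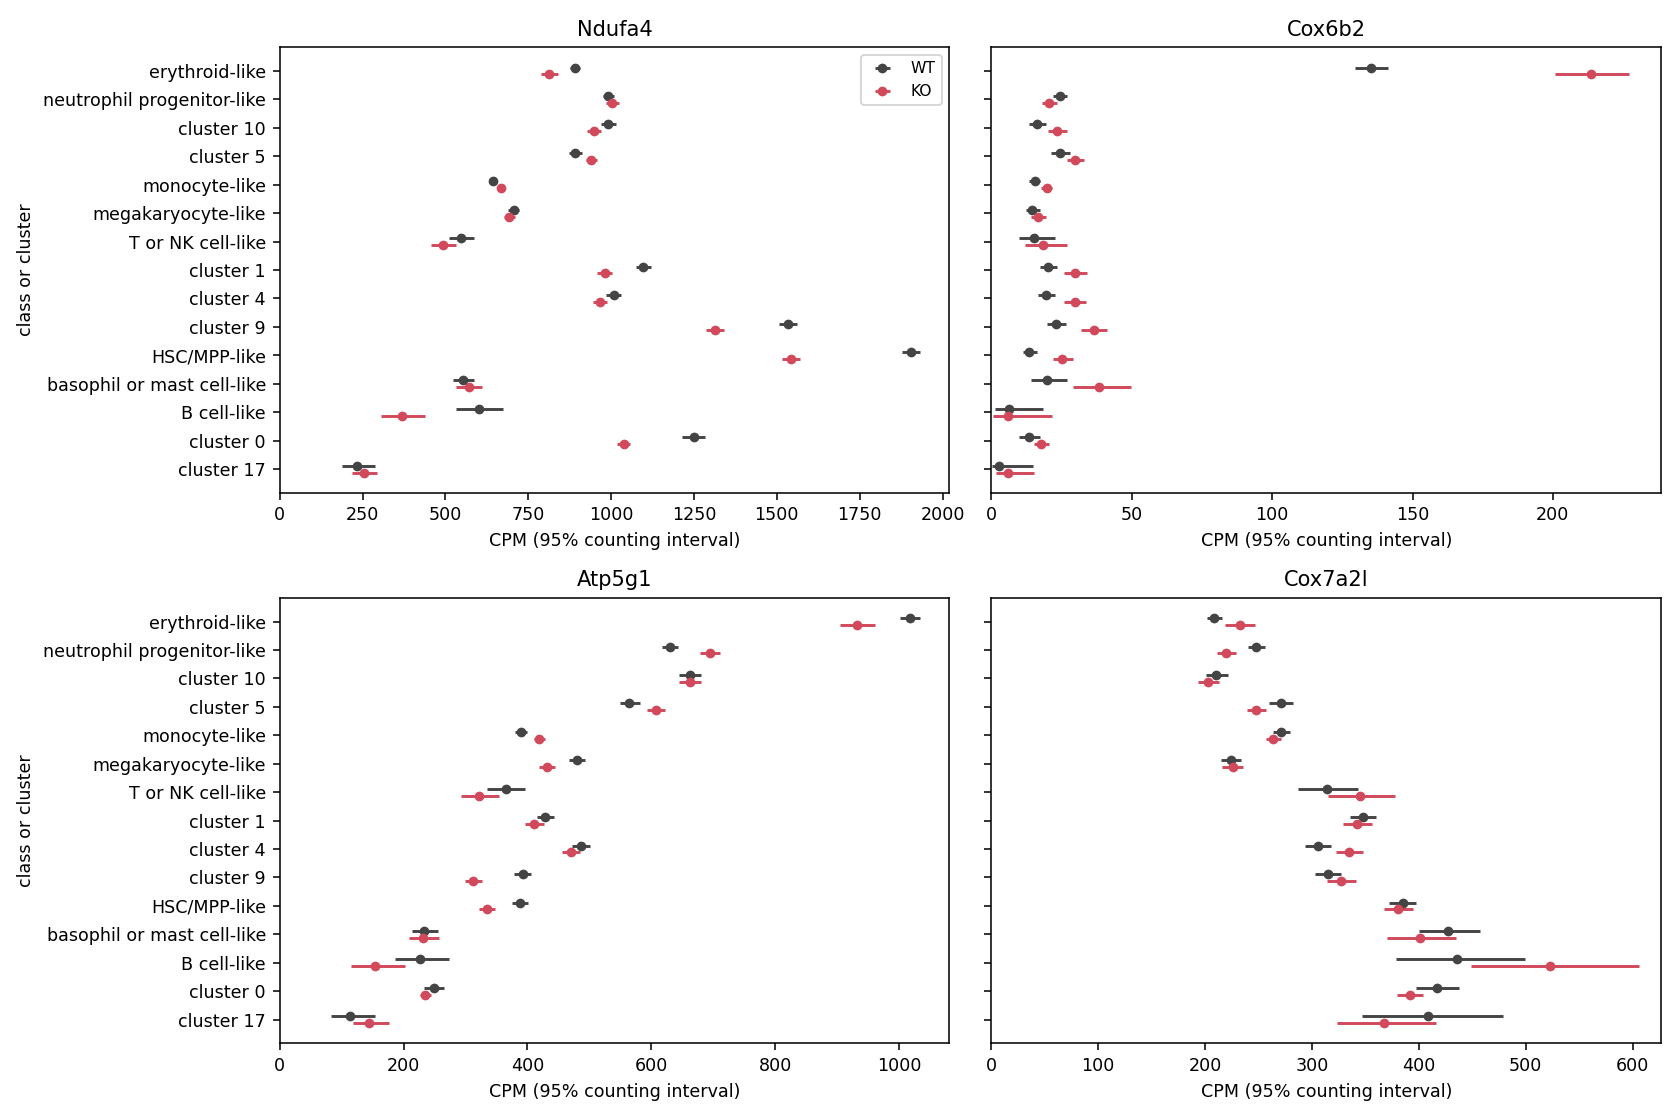
CPM (x axes) of Ndufa4, Cox6b2, Atp5g1 and Cox7a2l in each class or unnamed cluster with at least 50 cells in each library (y axis, ordered by the summed level of all members), WT in grey and KO in red, with 95% counting intervals. Ndufa4 peaks in the HSC/MPP-like class at 1906 and 1544 CPM, while Cox6b2 stands out in the erythroid-like class at 135 and 214 CPM.

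Cox6a2, the heart and muscle form of Cox6a, was found in few cells. In cluster 16, which carries the T or NK cell name but is also led by the plasmacytoid dendritic cell gene Siglech, Cox6a2 had a UMI in 7 of 83 WT cells and 16 of 70 KO cells, at 100.1 and 193 CPM. At a finer clustering, with resolution 2, Cox6a2 lay in a dendritic cell-like cluster led by Siglech, with a UMI in 7 of 57 WT and 15 of 55 KO cells. The 2 libraries' shares were 12.3% (5.08% to 23.7%) and 27.3% (16.1% to 41%). These exact Clopper-Pearson intervals are over the cells of 1 library each, so the difference was not tested. Cox6a2 was also the only member among the variable genes from which the clusters were made. In the plasma cell-like class, found in WT alone, 9 of 53 cells had a Cox6a2 UMI, 37 UMIs in all. In the B cell-like class, 4 of 68 WT cells and 1 of 51 KO cells had a Cox6a2 UMI, and in the monocyte-like cluster 8 it was 1 of 305 KO cells. Over all cells, 30 of 4478 WT and 32 of 4709 KO cells had a Cox6a2 UMI. The rest of these cells lay in clusters not listed here.

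Within classes of at least 200 cells in each library, the shift differed in sign. In the HSC/MPP-like class the members' median log2 ratio was -0.13, beside 0.05 over all genes, and 74 of 78 were below that median. In this class 6 of 78 were 1.2-fold lower, against 8.41% of all genes, and 1, Cox6b2, was 1.2-fold higher, against 18.1%. The accessory subunit Ndufb6 had 102 CPM in WT and 79.0 CPM in KO, a ratio of -0.36 (-0.51 to -0.22). Atp5b had 566 and 447 CPM, a ratio of -0.34, and Ndufb1-ps 302 and 240 CPM, a ratio of -0.33. Complex III again had the lowest median, -0.23, and complex II the highest, -0.08. With likely doublets kept, which also regroups the cells, the median relative to all genes was -0.31 in place of -0.19, and 28 members were 1.2-fold lower. With TMM factors 25 were, and with the median of ratios also 25.

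In the neutrophil progenitor-like class the median was 0.05, beside -0.03 over all genes, and 60 of 78 were above that median. None was 1.2-fold lower, against 11.6% of all genes, and 2 were 1.2-fold higher, against 7.79%. These were Atp5g3, with 305 CPM in WT and 371 CPM in KO, a ratio of 0.28 (0.22 to 0.34), and Cox6a1, with 267 and 321 CPM, a ratio of 0.27 (0.20 to 0.33). Lower were Sdhc at -0.20 and Cox7a2l at -0.17. The median relative to all genes was 0.08 and turned to -0.02 when both clusters of the class were weighted alike. Cluster 5, unnamed and led by the granule genes Mpo and Ctsg, had 27114 and 28321 summed CPM and a median of 0.07.

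The other 2 classes lay between. In the megakaryocyte-like class the median was -0.02, beside 0.05 over all genes. None of 78 was 1.2-fold lower, against 7.19% of all genes, or 1.2-fold higher, against 14.5%. Atp5o was the highest at 0.24 and Ndufa5 the lowest at -0.21. In the monocyte-like class the median was 0.02, beside 0.01 over all genes. None was 1.2-fold lower, against 5.14%, and 1, Cox6b2, was 1.2-fold higher, against 7.81%. Uqcrc1 was at -0.18 and Ndufa11 at 0.15.

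The erythroid-like class, with 107 KO cells, had a summed ratio of -0.13 (33886 and 30934 CPM), cluster 9 of -0.16 (23127 and 20653 CPM), cluster 0 of -0.11 (16951 and 15683 CPM) and cluster 1, led by Mycn, of -0.11 (23549 and 21875 CPM). Over the 15 classes or clusters with at least 50 cells in each library, the summed level was lower in KO in 9 and higher in 6. Single members differed in how often they followed. Uqcrc2 was lower in KO in 15 of 15, with an interval below 0 in 8. Atp5b and Cox5a were each lower in 13, with an interval below 0 in 9. Cox6a1 and Ndufb9 were each higher in 11 of 15, with an interval above 0 in 7.

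The 13 subunits encoded in mitochondrial DNA were higher in KO as a sum. Their summed level was 27234 CPM in WT and 29906 CPM in KO, a log2 ratio of 0.13, with a median of 0.14, and 3 of the 13 were 1.2-fold higher, where 15% of all genes are: mt-Atp8 at 0.32, mt-Nd5 at 0.29 and mt-Nd6 at 0.28. Another 3 were lower in KO with an interval below 0, mt-Nd4l at -0.06, mt-Nd1 at -0.06 and mt-Cytb at -0.02. The sum was higher in KO in 15 of 15 classes or clusters. The gap from the nuclear members was widest in the erythroid-like class, at 0.31 against -0.13. That class joins clusters 15 and 18 in different proportions in WT and KO, and the part of this in both ratios was not tested. Mitochondrial UMIs also reflect cell quality and the filter at 10% mitochondrial UMIs, which removed 534 WT and 298 KO barcodes, and their part in this result was not tested.

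**Figure D4:**
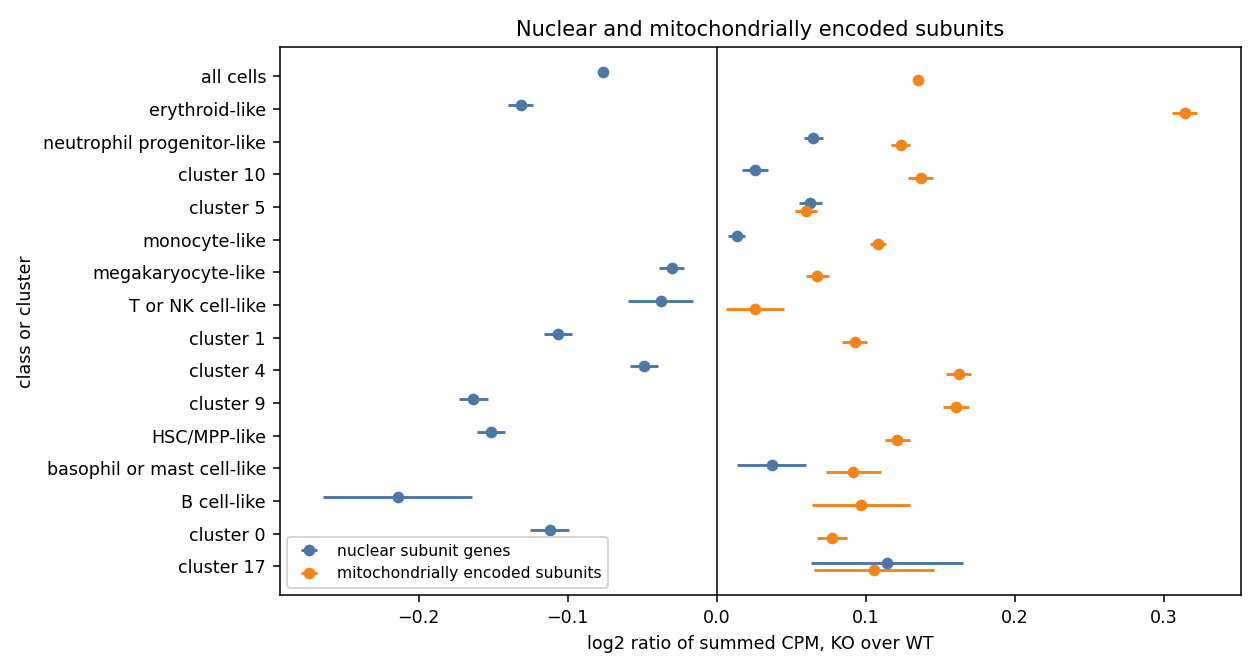
Log2 ratio of summed CPM, KO over WT (x axis), of the nuclear subunit genes (blue) and the 13 mitochondrially encoded subunits (orange) in all cells and in each class or cluster with at least 50 cells in each library (y axis), with 95% counting intervals. Every orange point lies above 0, while the blue points lie below 0 in 9 of the 15 classes or clusters.

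Most other lists of nuclear genes of mitochondria were also slightly lower over all cells, but not the biogenesis regulators. The tricarboxylic acid cycle list (17 of 17 at 10 CPM or more) had a median of -0.10 and 2 genes 1.2-fold lower: Idh3a, of isocitrate dehydrogenase, at -0.38 (70.4 CPM in WT and 54.2 CPM in KO) and Mdh2, malate dehydrogenase, at -0.29. The coenzyme Q and cytochrome c list (15 of 16) had a median of -0.13, with 1 gene 1.2-fold lower, Coq7 at -0.30, then Cyc1 at -0.26 and Cycs at -0.24. The mitochondrial ribosome list (78 of 78) had a median of -0.17 and 5 genes 1.2-fold lower, among them Mrps18b at -0.43 and Mrpl12 at -0.39. In the HSC/MPP-, megakaryocyte-, monocyte- and neutrophil progenitor-like classes its median was -0.10, -0.03, 0.004 and -0.05. All genes there were at 0.05, 0.05, 0.01 and -0.03. The tricarboxylic acid cycle median in these classes was -0.09, -0.06, -0.07 and -0.06. For the mitochondrial ribosome, the erythroid-like median was -0.17 and that of cluster 9 -0.16, beside 0.08 and 0.06 over all genes. It was -0.23 in the B cell-like, -0.004 in the T or NK cell-like and 0.03 in the basophil or mast cell-like class. Clusters 0, 1 and 4 were at -0.04, -0.08 and -0.07. Clusters 5, 10 and 17 were at 0.02, 0.008 and 0.19. The part of the mix of cells in the values over all cells was not tested. Assembly factors (47 of 50) had a median of -0.04, with none past 1.2-fold, and biogenesis regulators (14 of 20) of 0.04, also with none. Among the genes of these nuclear lists at 10 CPM or more, none was 1.2-fold higher. Over all genes, 5.74% were 1.2-fold lower and 15% higher, so the 5 of 78 of the mitochondrial ribosome lie near the background.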

How the data were processed

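The authors deposited raw UMI counts for each gene and barcode of the 3′ libraries, per the labels and file headers. The matrix headers name Cell Ranger 6.0.2, the submitters' processing notes Cell Ranger 3.0.1 and GRCm38, and no source used here names the annotation release. Cells with fewer than 500 genes (51 WT, 32 KO) or over 10% mitochondrial UMIs were left out, then 224 and 221 likely doublets by Scrublet score, 0.8% of barcodes per 1000.

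Both libraries were clustered together (2000 variable genes, 30 components, 15 neighbours, Leiden resolution 1). A class needed a median log2 fold of its markers of at least 1, at least 3 markers in 25% of cells, no more top 10 genes of another class than of its own, and at least 1 own marker among them. This last condition was added after a cluster led by C1qb had taken a dendritic cell name. It also left 2 larger clusters unnamed that met the other conditions. These were cluster 1 (433 WT and 395 KO cells), with megakaryocyte as its best class, and cluster 9 (248 and 251), with HSC/MPP. The HSC/MPP-like and megakaryocyte-like values therefore depend on this choice. UMIs were summed per library and class and given as CPM with exact Poisson intervals, and log2 ratios with exact conditional binomial intervals. The ratios and their intervals were tested on counts simulated with Poisson error alone, which leaves out variation between cells, clones and libraries. That test was changed to pool many draws after a first draw fell short of its coverage cutoff.

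The members, gene lists and markers were chosen with earlier results of these data known. Members were named by rule: in each complex the 3 highest and 3 lowest ratios and the 2 most abundant, the widest and narrowest ranges over classes, the 3 furthest from 0 each way in each class, and all paralogue groups. Companion lists name up to 3 genes each. Alternatives were other cell filters, doublets kept, other scalings (edgeR 4.0.16), CPM minimums, weightings and clusterings. Tools were Python 3.11.15, scanpy 1.11.5, scipy 1.17.1, leidenalg 0.10.2 and R 4.3.3.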

Additional observations from a re-analysis of the deposited data

Results flagged for a closer look

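The ratio of the members' summed CPM, KO over WT, had opposite signs in classes of at least 200 cells in each library: -0.15 in the HSC/MPP-like class and -0.0302 in the megakaryocyte-like class, but 0.0648 in the neutrophil progenitor-like class and 0.0135 in the monocyte-like class, each with a counting interval that leaves out 0. With 1 library a group the difference between classes was not tested. A first criterion, medians of opposite sign beyond their counting intervals, picked 0 pairs of the 4 classes. The summed criterion was chosen after that was seen, and picked 4 pairs.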

How the results depend on the processing

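No paired analysis was possible because each group has 1 library, and for the same reason no replicate could be left out. Relative to the median of all genes, the members' median over all cells was -0.13 and stayed below 0 in 10 of 10 alternatives: -0.11 at 50 CPM, -0.15 with no minimum, -0.0745 with clusters weighted alike and -0.0754 with classes weighted alike were the values that moved by more than the counting interval. TMM factors, the median of ratios and the total without mitochondrial, ribosomal protein and haemoglobin UMIs scale all genes of a library alike. They can change a relative median, here or by complex or class, only through genes that cross the CPM minimum. These alternatives are therefore no check of it. By complex, 10 alternatives each gave relative medians of -0.16 to -0.0672 (complex I), -0.13 to -0.0672 (II), -0.21 to -0.0867 (III), -0.14 to -0.028 (IV) and -0.16 to -0.0912 (V). TMM factors moved the median of all genes from 0.06 to -0.01 and the median of ratios to -0.03, and 3 and 5 members were then 1.2-fold lower over all cells, in place of 0. In the HSC/MPP-like class the relative median was -0.19, with -0.31 when doublets were kept, and the 6 members 1.2-fold lower became 11 with the stricter cell filter, 28 with doublets kept, 25 with TMM factors, 25 with the median of ratios and 15 at resolution 0.5. In the neutrophil progenitor-like class 0.08 reversed to -0.0181 with its clusters weighted alike. Cox6b2 reversed from -0.06 to 0.38 without erythroid-like cells, an alternative chosen after seeing the data. Summed levels of classes over all cells, in log2, were -0.27 (HSC/MPP-like), 0.37 (erythroid-like), 0.22 (neutrophil progenitor-like), 0.09 (monocyte-like), -0.05 (megakaryocyte-like), -0.54 (basophil or mast cell-like). In the alternatives below, a class is left out where its level moved by less than the counting interval. With the stricter cell filter the levels were -0.52 (HSC/MPP), 0.0949 (monocyte), -0.0242 (megakaryocyte) and -0.50 (basophil). With doublets kept they were -0.38 (HSC/MPP), 0.36 (erythroid), 0.24 (neutrophil), 0.0981 (monocyte), -0.0529 (megakaryocyte) and -0.49 (basophil). With mitochondrial, ribosomal protein and haemoglobin UMIs left out of the total they were -0.22 (HSC/MPP), 0.42 (erythroid), 0.27 (neutrophil), 0.0456 (monocyte), -0.22 (megakaryocyte) and -0.62 (basophil). With a mean per cell they were -0.14 (HSC/MPP), 0.41 (erythroid), 0.36 (neutrophil), 0.23 (monocyte), -0.22 (megakaryocyte) and -0.48 (basophil). With resolution 0.5 they were -0.43 (HSC/MPP), 0.12 (monocyte), -0.0851 (megakaryocyte) and -0.56 (basophil). With resolution 2 they were -0.33 (HSC/MPP), 0.21 (neutrophil), 0.0993 (monocyte), 0.0338 (megakaryocyte) and -0.50 (basophil). With variable genes without members they were -0.56 (HSC/MPP), 0.32 (erythroid), 0.20 (neutrophil), 0.10 (monocyte), -0.0421 (megakaryocyte) and -0.59 (basophil). This alternative left out only Cox6a2 and clustered the cells again. The cause of these moves was not tested. Over HSC/MPP-like cells, the reference used first and replaced after its values were seen, the megakaryocyte-like level of 0.22 reversed to -0.001 with those UMIs left out of the total and -0.0843 with a mean per cell, and the basophil or mast cell-like level of -0.28 reversed to 0.02 with the stricter cell filter.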
